A study of Mus musculus with 16 samples.

Results

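The 32 genes described here encode the proteins of blood clotting and of clot removal: the coagulation factors, their cofactors and inhibitors, fibrinogen, and the plasminogen system. They were taken from a list of gene symbols, chosen with earlier results of these data known. Of these genes 30 had an array row of their own among 19938 named genes. Cpb2, a carboxypeptidase that slows fibrinolysis, was not analysed here, and Klkb1, which encodes plasma prekallikrein, had only a row shared with a neighbouring gene. The 2 groups were 7 liver RNA samples of mice carrying a Pdgf-c transgene and 9 liver RNA samples of wildtype mice, all on the C57BL/6 background, with 1 Affymetrix Mouse Gene 1.0 ST array a sample. The labels give no age, sex, treatment, copy number or promoter of the transgene, and do not state whether each sample is a different mouse; p-values then describe the spread among these samples alone, which may be technical. The cell type label reads stromal cells, whereas the protocol describes total hepatic RNA. The hepatocyte gene Alb had a mean log2 intensity of 13.54 in transgenic arrays and 13.56 in wildtype arrays, so the samples are called livers here. The Pdgfc row itself was 1.36-fold higher in the transgenic livers (limma adjusted p = 0.00132), with 6 of 7 transgenic arrays above all wildtype arrays.

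Clotting starts when tissue factor, held outside the bloodstream on perivascular cells, binds factor VII and activates factor X, which turns prothrombin into thrombin. Thrombin cuts fibrinogen to fibrin and amplifies its own formation through factors V, VIII and XI. Antithrombin, protein C with its endothelial receptors, and tissue factor pathway inhibitor restrain it, and plasmin, made from plasminogen by its activators, dissolves the fibrin. Hepatocytes secrete most of the circulating proteins of this system, while factor VIII comes mainly from sinusoidal endothelium, and thrombomodulin, tissue factor pathway inhibitor and urokinase come from endothelial, stromal or myeloid cells. The members were therefore split by their textbook source into 23 hepatocyte genes, 21 of them measured, and 9 genes of endothelial, stromal or myeloid source, all measured.

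The promoters of 5 members, picked by position and by their results, are shown first. The 3 fibrinogen chain genes lie side by side in the genome and 2 of them were called lower. F8 had the largest fall of the members, and F3 was among the genes that rose. Whether the motifs bear on these differences was not tested. The windows are those of RefSeq, build GRCm38.p6, each of 300 bases with 250 before and 50 after the annotated start, printed 5′ to 3′ on the strand of the gene. They are Fga at chr3:83025903-83026202 on the plus strand, Fgb at chr3:83049814-83050113 on the minus strand, Fgg at chr3:83007474-83007773 on the plus strand, F3 at chr3:121723287-121723586 on the plus strand and F8 at chrX:75379992-75380291 on the minus strand. Capitals mark matches, on either strand, to GTTAAT of the HNF1 site, AAAGTCC of the HNF4 site, TGANTCA of the AP-1 site and GGAATG of the TEAD site.
Fga: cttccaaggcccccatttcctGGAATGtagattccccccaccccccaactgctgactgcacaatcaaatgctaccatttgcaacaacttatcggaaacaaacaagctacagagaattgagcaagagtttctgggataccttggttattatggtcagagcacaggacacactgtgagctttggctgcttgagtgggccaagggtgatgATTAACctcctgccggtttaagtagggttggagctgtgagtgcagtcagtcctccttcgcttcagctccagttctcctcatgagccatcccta
Fgb: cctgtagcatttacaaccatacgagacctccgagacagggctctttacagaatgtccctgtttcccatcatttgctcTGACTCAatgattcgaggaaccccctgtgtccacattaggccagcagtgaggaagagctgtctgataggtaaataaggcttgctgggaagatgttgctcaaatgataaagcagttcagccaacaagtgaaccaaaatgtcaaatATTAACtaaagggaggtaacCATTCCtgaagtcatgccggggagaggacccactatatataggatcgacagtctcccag
Fgg: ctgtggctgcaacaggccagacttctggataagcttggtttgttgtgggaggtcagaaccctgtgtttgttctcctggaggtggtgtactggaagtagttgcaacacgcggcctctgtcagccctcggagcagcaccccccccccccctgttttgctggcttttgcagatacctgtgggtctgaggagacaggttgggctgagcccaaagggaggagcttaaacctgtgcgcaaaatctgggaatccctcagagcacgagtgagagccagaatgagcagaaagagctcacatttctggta
F3: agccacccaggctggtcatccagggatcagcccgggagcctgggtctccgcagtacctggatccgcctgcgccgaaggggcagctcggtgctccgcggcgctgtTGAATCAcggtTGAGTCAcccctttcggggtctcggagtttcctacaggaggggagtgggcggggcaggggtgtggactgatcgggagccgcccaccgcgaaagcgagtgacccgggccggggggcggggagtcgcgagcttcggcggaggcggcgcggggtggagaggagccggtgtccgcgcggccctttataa
F8: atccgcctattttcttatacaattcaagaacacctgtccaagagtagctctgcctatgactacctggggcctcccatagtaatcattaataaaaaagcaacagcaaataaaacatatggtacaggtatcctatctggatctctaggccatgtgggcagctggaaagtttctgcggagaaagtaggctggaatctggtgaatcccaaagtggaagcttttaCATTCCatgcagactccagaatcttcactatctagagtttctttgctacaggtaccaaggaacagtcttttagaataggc
Of these 4 motifs, the HNF1 letters appeared 43 bases before the start of Fga and 29 bases before that of Fgb, and they did not appear in the Fgg window. HNF1 is a hepatocyte transcription factor. Over all windows of hepatocyte members with an entry, 5 of 19 (26.3%) held these letters, those of F13b, F2, Fga, Fgb and Proz, against 7.1% of all 32851 promoter windows. The F3 window held 2 AP-1 matches, beginning 146 and 135 bases before the start. AP-1 letters occurred in 4 of 11 windows of the endothelial, stromal or myeloid members (36.4%), those of F3, Plaur, Procr and a window of Tfpi2, and in 3 of 19 hepatocyte windows (15.8%), against 7.81% of all windows. The F8 window held a TEAD match 30 bases before the start, as did 14.7% of all windows somewhere, 5 of 19 hepatocyte windows (26.3%) and 1 of 11 other member windows (9.09%). The HNF4 letters were in 1 of 19 hepatocyte windows and 3 of 11 others, against 4.21% of all. The tables used here hold windows of 26 of the 32 members, without Plau, Thbd, Plg, Proc, Serpina10 and Kng1, so the 11 windows come from 7 genes and leave out Thbd and Plau, which rose most. Windows of Tfpi, Tfpi2 and F13a1 are more than 1 a gene and can overlap, and a match of letters is a description, not a binding site. No motif overlapped another in the 5 windows shown.

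The series was designed around the part of liver stromal cells in tumour formation, and its transgenic and wildtype livers were compared here for the clotting genes. Among the 30 measured members, 16 were lower and 5 higher in the transgenic livers at an adjusted p of 0.05 (limma, Benjamini-Hochberg over all 35557 rows), and 9 were not called. Over all 19938 genes, 11.1% were lower and 12.1% higher, 23.2% in all. Of 21 hepatocyte genes 14 fell and 1, F5, rose, with a median log2 difference of -0.15, and none changed by as much as 1.5-fold. Of 9 genes of endothelial, stromal or myeloid source 4 rose and 2 fell, with differences from -1.29 to 0.96 and a median of 0.15, beside a median of -0.04 over all genes. Among the members that changed by at least 1.5-fold, 3 rose (F3, Thbd and Plau) and 1 fell (F8), against 3.78% of all genes that rose and 0.868% that fell by that much.

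**Figure D1:**
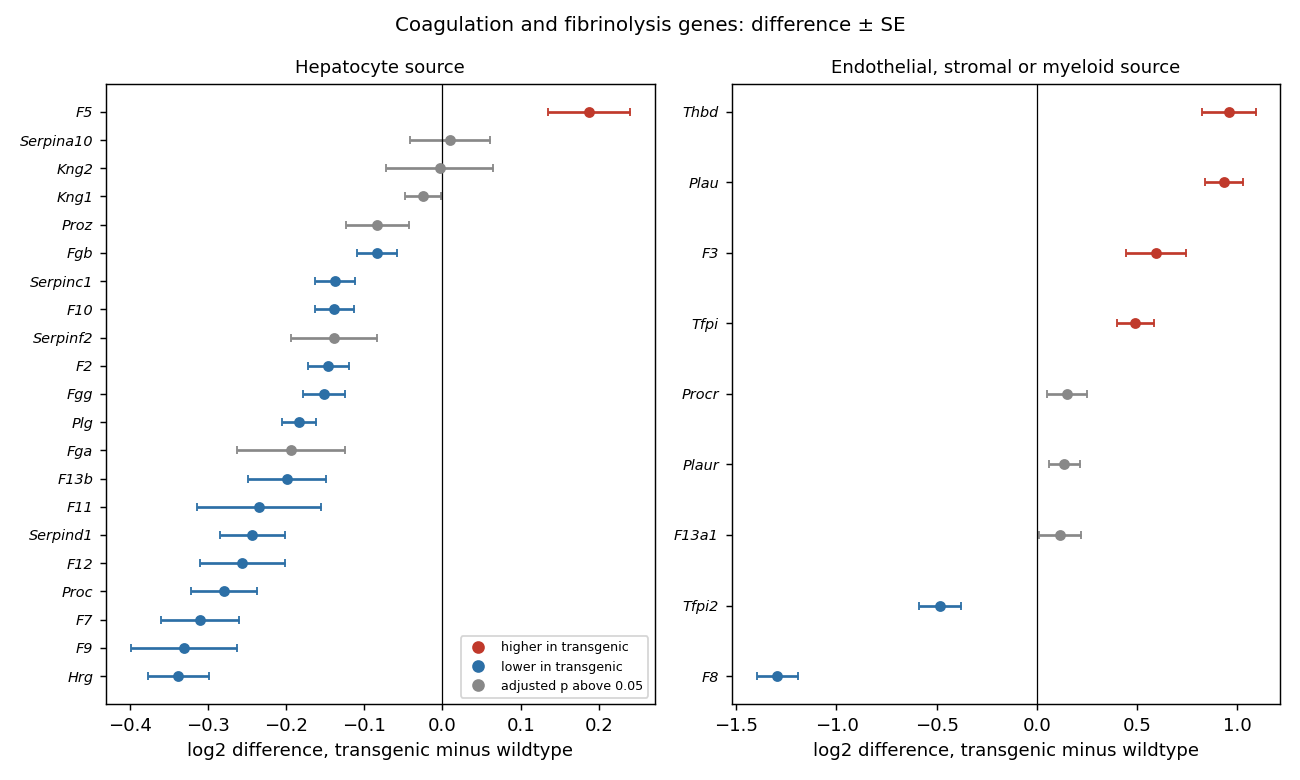
Log2 difference, transgenic minus wildtype, of each measured member with its standard error (7 transgenic and 9 wildtype arrays). The left panel holds the 21 hepatocyte genes, which lie between -0.34 (Hrg) and 0.19 (F5), and the right panel the 9 genes of other source, on a wider axis from -1.29 (F8) to 0.96 (Thbd).

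Bright genes as a whole leaned downward, and this bears on the hepatocyte members, all of which are bright. Among the 1531 genes whose wildtype mean lay within the range of the hepatocyte members (9.37 to 12.97 on the log2 scale), 42.1% were lower and 10.6% higher, and their median difference was -0.11; this background was chosen after the values were seen. The hepatocyte members, at 66.7% lower and a median of -0.15, are to be read against these values and not against all genes. Groups did not overlap in 8 of 21 hepatocyte members, all with the transgenic arrays below, against 3.65% of all genes and 20.2% of the genes in that range of level. For the 9 other members, the 14328 genes in their range of wildtype level (4.06 to 9.38) were lower in 10.5% and higher in 14.8% of cases, with a median of -0.03. Tfpi2 alone set the upper end of this range, as the others lay at 6.91 (F8) or below. In bins of level between 4 and 7, 2.45% to 7.48% of genes were lower and 11.5% to 19% higher. Between 9 and 10, where Tfpi2 lay, 37.3% were lower. Groups did not overlap in 2 of the 9 with the transgenic arrays above and in 1 with them below. The shares were 5.43% and 3.65% of all genes, and 6.75% and 2.87% of genes between 4.06 and 9.38. Of 11 measured hepatocyte marker genes that are no members, 3 fell and 1 rose, with a median of -0.05, and their summed level lay between 16.36 and 16.44 on the log2 scale in transgenic arrays and between 16.40 and 16.49 in wildtype arrays. In bulk RNA, fewer cells of a type and less RNA per cell cannot be told apart.

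**Figure D2:**
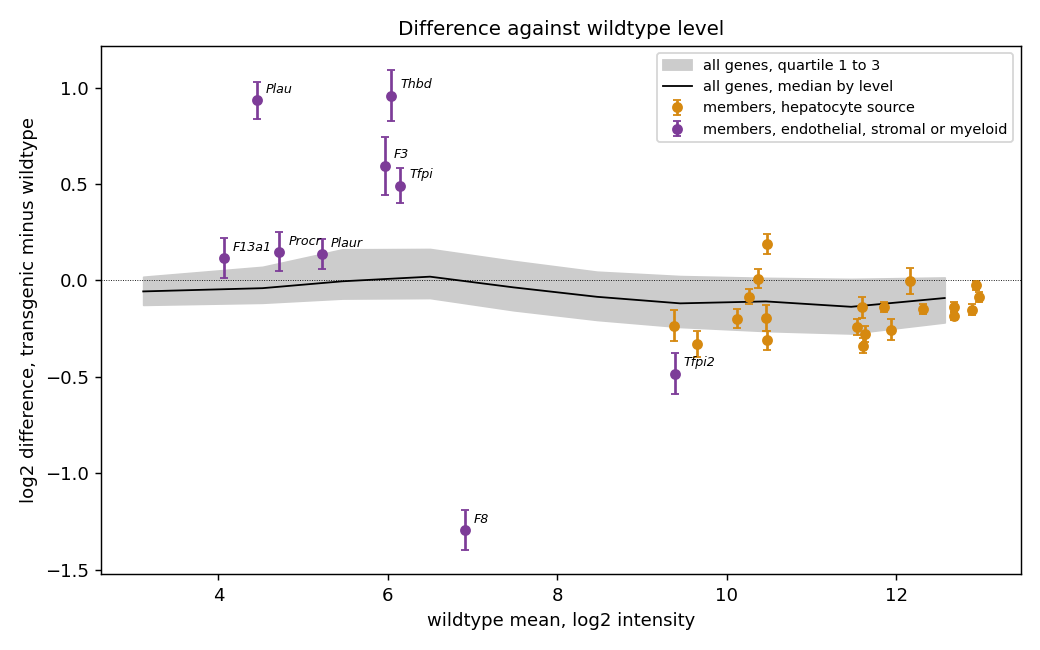
Log2 difference, transgenic minus wildtype, against the wildtype mean log2 intensity. Points are members with their standard error, the line is the median and the band quartiles 1 to 3 of all named genes in bins of wildtype level. Most hepatocyte members lie within or just below the band, whose median reaches -0.14 between 11 and 12, while F8, Thbd, Plau, F3 and Tfpi lie well outside it.

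Factor VIII, the cofactor of factor IX that is missing in haemophilia A, showed the largest difference of all members. F8 had log2 intensities of 5.34 at the lowest, 5.57 at the median and 6.01 at the highest in transgenic livers, against 6.70, 6.86 and 7.26 in wildtype livers. Every transgenic array lay below every wildtype array, with a gap wider than either group's standard deviation (0.242 in transgenic and 0.197 in wildtype arrays). The difference was -1.29 ± 0.104 (SE, 7 against 9 arrays), or 2.45-fold lower (limma adjusted p = 5.63e-08). Genes that mark sinusoidal endothelium fell with it: 7 of 10 were lower and 1 higher, and their summed level ranged from 9.92 to 10.33 on the log2 scale in transgenic arrays and from 11.19 to 11.50 in wildtype arrays, with none below the 20th percentile of the table. Their part in the F8 result was not tested.

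Thrombomodulin, the endothelial receptor that turns thrombin from a clotting enzyme into an activator of protein C, moved the other way. Thbd ranged from 6.24 through a median of 7.09 to 7.23 in transgenic livers, against 5.66, 6.10 and 6.31 in wildtype livers. Transgenic array 1 held the lowest value and lay inside the wildtype range, and the other 6 lay above all wildtype arrays. The fit gave 1.94-fold (0.96 ± 0.133, limma adjusted p = 3.95e-05). Procr, the endothelial protein C receptor that presents protein C to thrombomodulin, differed by 0.15 ± 0.101 (adjusted p = 0.357, limma). Its transgenic arrays spread from 4.48 to 5.13, overlapping the wildtype range of 4.41 to 4.92, and 3 of 7 lay above all wildtype arrays.

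Tissue factor and its inhibitors did not move as a block. F3, which encodes tissue factor, had log2 intensities of 6.14, 6.55 and 6.93 (lowest, median, highest) in transgenic livers, against 5.44, 6.08 and 6.49 in wildtype livers. The groups overlapped, with 4 of 7 transgenic arrays above all wildtype arrays, and the wildtype standard deviation of 0.36 was the largest of the 9 genes. F3 rose 1.51-fold (0.60 ± 0.15, limma adjusted p = 0.00816). Tfpi, which blocks the complex of tissue factor with factor VII, ranged from 6.52 through 6.57 to 6.86 in transgenic livers, against 5.72, 6.15 and 6.41 in wildtype livers, without overlap. It rose 1.41-fold (0.49 ± 0.0904, limma adjusted p = 0.000641). Tfpi2, a related Kunitz-type inhibitor found in extracellular matrix, fell 1.4-fold (-0.48 ± 0.104, limma adjusted p = 0.00263). Its arrays lay at 8.52, 8.95 and 9.28 in transgenic livers, against 9.22, 9.38 and 9.70 in wildtype livers, and 5 of 7 transgenic arrays were below all wildtype arrays. The wildtype mean of Tfpi2, 9.38, lay at the low end of the hepatocyte members' range (9.37 to 12.97). The next brightest gene of its own group was F8, at 6.91. Which cells made the Tfpi2 transcript here was not tested.

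Plau, the urokinase that activates plasminogen on cell surfaces, rose 1.91-fold (0.93 ± 0.0955, limma adjusted p = 1.19e-06). It had 5.14, 5.39 and 5.67 in transgenic livers, against 4.21, 4.39 and 4.78 in wildtype livers, and the groups did not overlap. Its receptor gene Plaur differed by 0.14 ± 0.0777 (limma adjusted p = 0.256), with 5.14 to 5.55 in transgenic and 4.91 to 5.43 in wildtype arrays. F13a1, the catalytic subunit of the fibrin cross-linking factor XIII, made by macrophages and megakaryocytes, differed by 0.12 ± 0.106 (limma adjusted p = 0.51). It was the dimmest member, between 3.91 and 4.47 in transgenic arrays and between 3.50 and 4.29 in wildtype arrays, where the table's 20th percentile was 3.45.

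**Figure D3:**
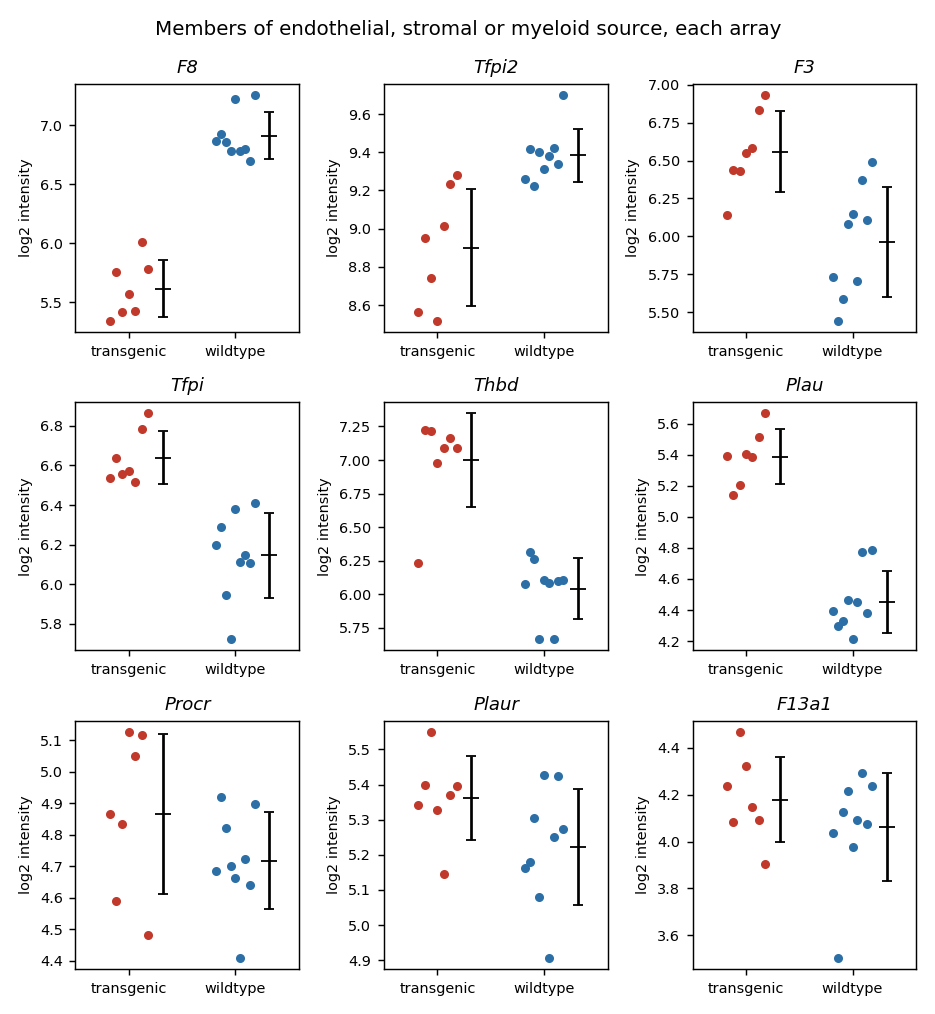
Log2 intensity of each array for the 9 members of endothelial, stromal or myeloid source, transgenic left and wildtype right, with the group mean and standard deviation in black (7 and 9 arrays). Axes differ between panels. F8, Tfpi and Plau show no overlap between the groups; in Thbd a single transgenic array, at 6.24, falls within the wildtype range.

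Markers of the cells that could carry these transcripts also moved. Of 12 stellate cell and fibroblast markers all 12 rose, with summed log2 levels of 12.66 to 12.98 in transgenic arrays and 10.63 to 11.36 in wildtype arrays. Of 9 measured vascular endothelial markers 5 rose and 1 fell, with 10.40 to 10.73 in transgenic and 9.89 to 10.25 in wildtype arrays. This list was also mixed. Cd34 rose most, by 3.14, and the others that rose did so by 0.35 (Pecam1) to 1.23 (Emcn). Kdr fell, at -1.01, and Cdh5, Tek and Tie1 were not called. Of 12 macrophage and monocyte markers 7 rose and 4 fell, with 10.88 to 11.54 in transgenic and 10.57 to 11.46 in wildtype arrays. These overlapping sums hold opposite shifts. Those that fell were Clec4f, Timd4, Vsig4 and Marco, with differences from -2.70 (Clec4f) to -0.67 (Marco). Those that rose differed by 0.38 (Csf1r) to 2.26 (Ms4a7). Of 7 measured platelet and megakaryocyte markers 2 rose and 2 fell, with 8.99 to 9.22 in transgenic and 8.64 to 8.87 in wildtype arrays. Here Pf4 and Ppbp rose, by 2.32 and 1.10, and Clec1b and Itga2b fell, at -2.10 and -0.18. Gp9, Gp5 and Treml1 were not called, so the higher sum does not hold for the list as a whole. None of these markers had a mean below the table's 20th percentile, and the part of these cells in the changes of Thbd, F3, Tfpi and Plau was not tested.

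Among the vitamin K dependent hepatocyte members, which need carboxylated glutamates to bind membranes, 5 of 6 fell (F2, F7, F9, F10 and Proc). This grouping was made after the values were seen. Of all genes 11.1% were lower, and of genes in the hepatocyte members' range of level 42.1%. Pros1, which is also vitamin K dependent but no member, went the other way and rose 1.59-fold (0.67 ± 0.0726, limma adjusted p = 2.25e-06). F9, the factor missing in haemophilia B, had 9.003, 9.38 and 9.52 (lowest, median, highest) in transgenic livers, against 9.54, 9.62 and 9.79 in wildtype livers. The highest transgenic and the lowest wildtype array lay close together, without overlap, and the difference was -0.33 ± 0.0678 (limma adjusted p = 0.0017). F7, the partner of tissue factor, differed by -0.31 ± 0.0499 (adjusted p = 0.000179, limma), with 6 of 7 transgenic arrays below all wildtype arrays. Proc, the anticoagulant protein C, fell by 0.28 ± 0.0417 on the log2 scale (adjusted p = 8.05e-05, limma), with 11.11 to 11.47 in transgenic arrays and 11.55 to 11.67 in wildtype arrays.

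F2, which encodes prothrombin, had 12.13, 12.17 and 12.28 in transgenic livers, against 12.26, 12.30 and 12.41 in wildtype livers, and only transgenic array 1 reached into the wildtype range. Its difference was -0.15 ± 0.0264 (limma adjusted p = 0.000551). F10, activated where the intrinsic and extrinsic routes meet, fell by 0.14 ± 0.0252 on the log2 scale (adjusted p = 0.000593, limma) without overlap. Proz, the cofactor of an inhibitor of factor X, differed by -0.08 ± 0.0402 (adjusted p = 0.173, limma), and that inhibitor's gene, Serpina10, by 0.01 ± 0.0506 (adjusted p = 0.927, limma). F7, F10 and Proz are neighbours in the genome.

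F5 was the hepatocyte member that rose. It encodes the cofactor of factor X and the structural relative of factor VIII. Its log2 intensities were 10.54, 10.64 and 10.80 in transgenic livers, against 10.30, 10.47 and 10.64 in wildtype livers, and 3 of 7 transgenic arrays exceeded all wildtype arrays. The difference of 0.19 ± 0.0521 (limma adjusted p = 0.0157) shrank to 0.14 and lost its call with each array centred on its median (limma adjusted p = 0.121). F5 and F8 therefore differed from wildtype in opposite directions as deposited.

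In the contact pathway, F12, whose product starts clotting on charged surfaces, fell without overlap (-0.26 ± 0.054, adjusted p = 0.00214, limma), with 11.34, 11.73 and 11.86 in transgenic livers, against 11.87, 11.94 and 11.995 in wildtype livers. The transgenic standard deviation was 0.167 and the wildtype one 0.0401. F11, which links this route to factor IX, was called at the edge of the threshold (-0.23 ± 0.0795, adjusted p = 0.0467, limma). No transgenic array lay below all wildtype arrays, and leaving out any of transgenic arrays 2, 3, 4, 5 and 6 or of wildtype arrays 1, 2, 5, 6, 7, 8 and 9 ended the call, with adjusted p-values up to 0.0955. The kininogen genes Kng1 and Kng2, which carry the bradykinin sequence and lie beside Hrg, differed by -0.03 ± 0.0234 and -0.003 ± 0.0684 (adjusted p-values 0.522 and 0.983, limma). Kng2 had 4 transgenic arrays above and transgenic array 1, at 11.70, below all wildtype arrays. Kng1 and Kng2 are close paralogues, and probes may not tell them apart fully. The row shared by Klkb1 and Cyp4v3 was lower (-0.25 ± 0.0476, adjusted p = 0.00103, limma), and the signals of the 2 genes in it cannot be told apart.

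Fibrinogen is built from 3 chains. Fga had 10.05, 10.26 and 10.45 in transgenic livers, against 10.19, 10.52 and 10.62 in wildtype livers, overlapping in 5 of 7 transgenic arrays, and its difference of -0.19 ± 0.0689 was not called (limma adjusted p = 0.0583). Fga passed the threshold when transgenic array 5, transgenic array 6 or wildtype array 5 was left out, at limma adjusted p-values of 0.0336, 0.0422 and 0.0174. A further Fga row gave -0.18 ± 0.136 (limma adjusted p = 0.403). Fgg fell by 0.15 ± 0.0268 on the log2 scale (adjusted p = 0.000452, limma), with 6 of 7 transgenic arrays below all wildtype arrays. Fgb was lower by the smallest amount among the called members (-0.08 ± 0.0254, adjusted p = 0.0256, limma), and leaving out transgenic array 2 or 3 ended the call (limma adjusted p-values 0.0527 and 0.0633). F13b, the carrier subunit of factor XIII, differed by -0.20 ± 0.0501 (adjusted p = 0.00816, limma).

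Fibrinogen is also an acute phase protein, and 12 acute phase genes were set beside it. Of these 6 fell and 0 rose (limma; 2 were higher at an unadjusted p under 0.05), with a median of -0.16. Lower calls made up 11.1% of all genes, with a median of -0.04, and 42.1% of genes in the hepatocyte members' range of level, with a median of -0.11. That range was 9.37 to 12.97, whereas the acute phase genes had wildtype means from 6.25 to 13.31, so this share is not matched to them. Those inside the range, Orm1, Crp, Apcs, Itih3 and Itih4, all fell, and of those outside it only Orm2 fell. The largest falls were those of the orosomucoid gene Orm2 at -0.66 ± 0.216 (limma adjusted p = 0.0382), Itih4 at -0.38 ± 0.0434 (adjusted p = 3.78e-06) and Orm1 at -0.33 ± 0.0374 (adjusted p = 3.54e-06). The serum amyloid genes Saa1 and Saa2, which respond strongly to inflammation, differed by 0.26 ± 0.305 and 0.67 ± 0.279 (adjusted p-values 0.632 and 0.109, limma), and their arrays varied most in this list.

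The hepatocyte inhibitors of clotting were lower in part. Serpinc1, which encodes antithrombin, the main inhibitor of thrombin and factor X, had 12.44, 12.55 and 12.62 in transgenic livers, against 12.64, 12.69 and 12.72 in wildtype livers, without overlap (-0.14 ± 0.0254, limma adjusted p = 0.000668). Serpind1, the thrombin inhibitor heparin cofactor II, fell by 0.24 ± 0.0415 on the log2 scale (adjusted p = 0.00031, limma), also without overlap.

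In the plasminogen system, Plg had the tightest values of the transgenic group, a standard deviation of 0.0349. It lay at 12.47, 12.49 and 12.57 in transgenic livers, against 12.65, 12.68 and 12.74 in wildtype livers, without overlap, and fell by 0.18 ± 0.0214 on the log2 scale (limma adjusted p = 5.48e-06). Serpinf2, the plasmin inhibitor antiplasmin, differed by -0.14 ± 0.0546 (limma adjusted p = 0.0896), and was called without wildtype array 2 (-0.17, adjusted p = 0.0153). Hrg, a histidine-rich glycoprotein that binds plasminogen, heparin and fibrinogen, had the largest fall of the hepatocyte members, at -0.34 ± 0.039 (adjusted p = 4.77e-06, limma). Its arrays ranged from 11.12 to 11.40 in transgenic livers and from 11.51 to 11.71 in wildtype livers. Plasminogen was thus lower while its activator Plau was higher.

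**Figure D4:**
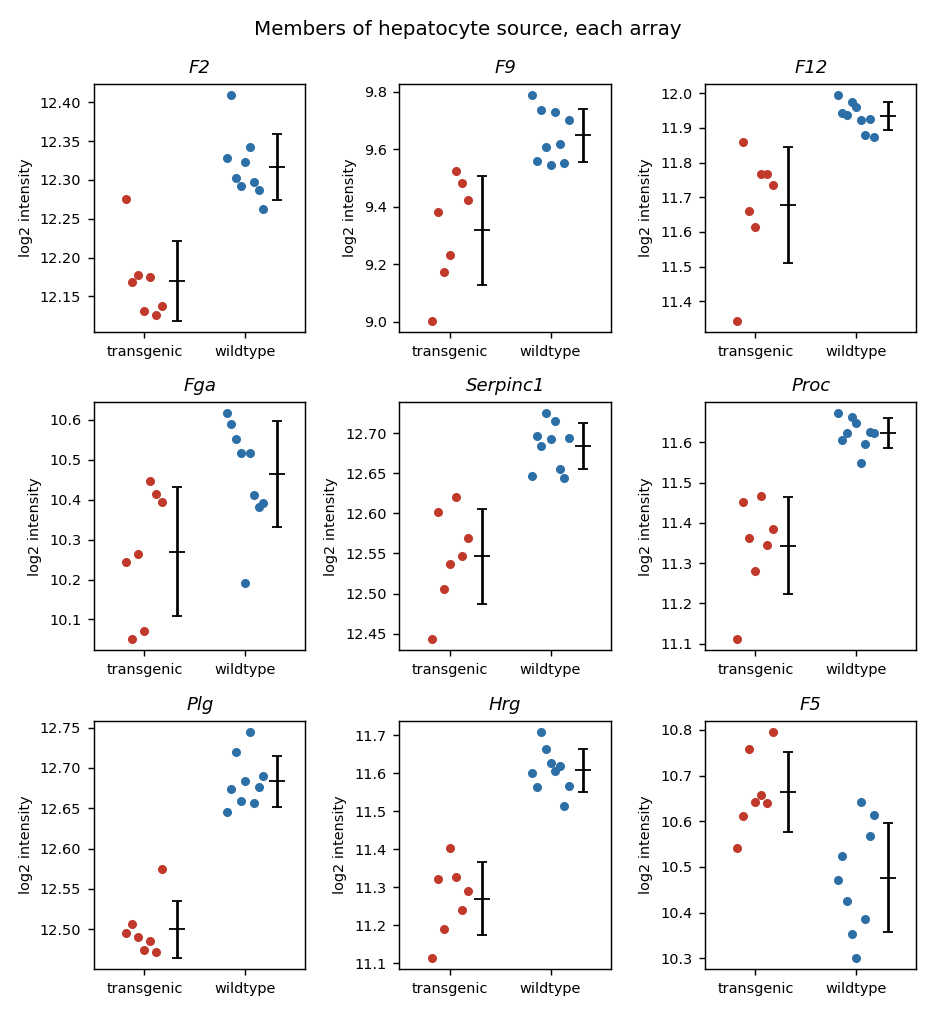
Log2 intensity of each array for 9 hepatocyte members, transgenic left and wildtype right, with the group mean and standard deviation in black (7 and 9 arrays). Axes differ between panels and span small ranges. F9, F12, Serpinc1, Proc, Plg and Hrg show no overlap, Fga overlaps, and F5 is the panel with higher transgenic values.

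Array by array, most hepatocyte members lay lower in the transgenic livers. The median deviation of the 21 genes from their wildtype means ranged from -0.22 in transgenic array 1 to -0.09 in transgenic array 5, and from -0.03 to 0.04 in wildtype arrays. The wildtype arrays themselves make up those means, so their deviations are kept small by construction. Between 16 and 20 of the 21 genes were below their wildtype mean in each transgenic array. By group means, 19 of the 21 had a difference below 0, as had 1107 of the 1531 genes in their range of level and 11992 of all 19938 genes. The count by array was not made for other genes. Transgenic array 1 held the lowest transgenic value of F5, F9, F12, Serpinc1, Proc and Hrg, and the highest of F2. Scatter within groups was small in these genes, with a median standard deviation of 0.0963 in transgenic and 0.0576 in wildtype arrays. It was larger in the other 9 genes, at 0.242 in transgenic and 0.199 in wildtype arrays. In wildtype array 9 all 9 of these genes lay above their wildtype mean, at a median of 0.27, next to a range of 0.17 to 0.41 in transgenic arrays. That array did not share the transgenic falls: its F8, at 7.26, and Tfpi2, at 9.70, were the highest of all arrays. Without transgenic array 1 and wildtype array 9 together, 5 members were still called higher and 14 lower.

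Other genes of the pathway, which were no members, moved in both directions: of 25 measured among 28 listed, 8 rose and 5 fell, with a median of -0.01. Over all genes 12.1% were higher and 11.1% lower. Anxa2, a surface receptor for plasminogen and its tissue activator, rose 3.66-fold (1.87 ± 0.117), F2r, the main thrombin receptor, 2.61-fold (1.39 ± 0.0743), and Fgl2, a membrane prothrombin-cleaving protein, 2.25-fold (1.17 ± 0.141). Adjusted p-values were 1.98e-09, 2.64e-10 and 8.1e-06 (limma). S100a10, the partner of Anxa2, differed by 0.27 ± 0.12 (limma adjusted p = 0.13). The other 5 that rose, named after their values were seen, were Plat, the tissue plasminogen activator, at 2.2-fold, the plasminogen receptor Plgrkt at 1.73-fold, Pros1, the cofactor of protein C, at 1.59-fold, Vwf, the carrier of factor VIII, at 1.36-fold, and the clearance receptor Lrp1 at 1.29-fold. Plat and Plau, the activators of plasminogen, were thus both higher.

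The 5 that fell included genes for making clotting factors. Hgfac, a secreted protease related to factor XII, was at -0.58 ± 0.053 (limma adjusted p = 2.79e-07). Ggcx, the carboxylase that completes the vitamin K dependent factors, was at -0.33 ± 0.0597 (limma adjusted p = 0.000574). Lman1, at -0.33 ± 0.0444 (limma adjusted p = 2.82e-05), and Mcfd2, at -0.14 ± 0.0464 (adjusted p = 0.0364), encode the cargo receptor known in humans to carry factors V and VIII out of the endoplasmic reticulum. Hpn, a hepatocyte membrane protease, was at -0.29 ± 0.0396. Vkorc1, which recycles vitamin K, differed by -0.04 ± 0.0342 (limma adjusted p = 0.526). Apart from Mcfd2, with a wildtype mean of 8.82, these genes lay in the bright range where 42.1% of all genes were lower.

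**Figure D5:**
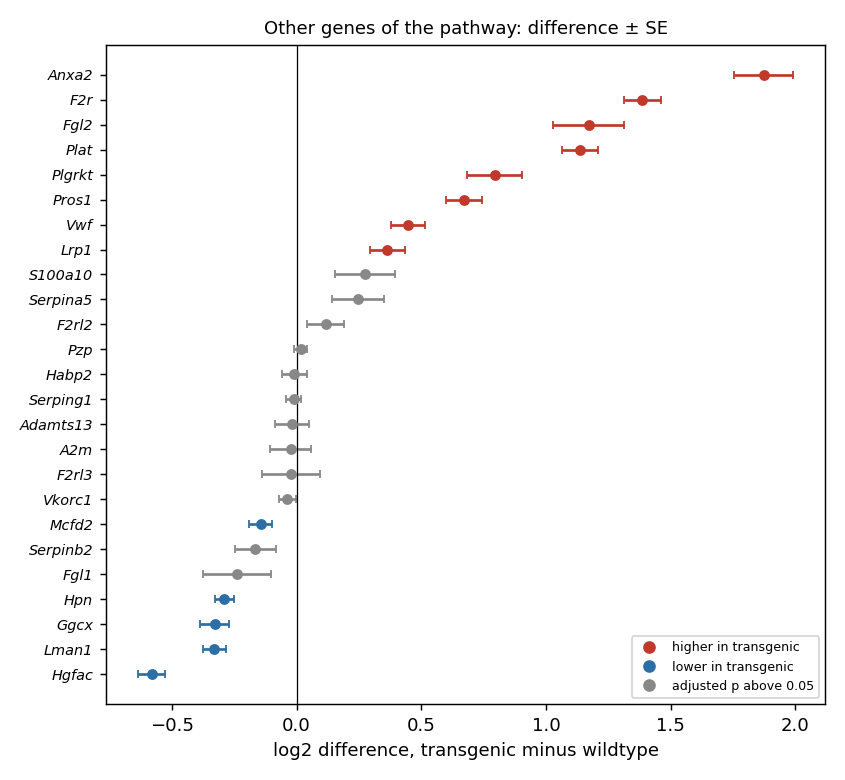
Log2 difference, transgenic minus wildtype, with standard error for 25 other genes of clotting and fibrinolysis (7 transgenic and 9 wildtype arrays). Anxa2, at 1.87, and F2r, at 1.39, are at the upper end, and Hgfac, at -0.58, at the lower end.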

How the data were processed

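Total liver RNA was hybridised to 1-colour Affymetrix arrays. The deposited values are log2 intensities, 1 per transcript cluster, made by the authors with GCRMA, per the submitters' processing notes; its version and settings are not given in the sources used here, and the log base was read from the range of 0.71 to 14.67. Column medians lay between 5.20 and 5.36. Scanner files and batches were not analysed here, and no columns were identical. The number of arrays limits the precision.

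Of 35557 rows, 21789 had 1 gene symbol, 1621 several and 12147 were not listed in the platform annotation. The brightest single-symbol row stood for each of 19938 genes. The test was that of limma 3.58.1 (R 4.3.3; two-sided, eBayes with trend, 14 residual degrees of freedom, no filter), with p-values adjusted by Benjamini-Hochberg over all rows, and the fit was tested on simulated data. Fold thresholds were 1.5. GCRMA compresses dim rows towards a floor, so folds of dim genes are less certain.

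Members and gene lists were chosen with earlier results of these data known. All members are named; array values are given for those called with at least 1.5-fold change and for F2, Fga, F9, Serpinc1 and Plg, and also for others after their values were seen. Of each other list described gene by gene, up to 3 called genes a direction are named, and further ones after their values were seen. Marker lists are summed as linear intensities. Plots were drawn with matplotlib 3.10.9.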

Additional observations from a re-analysis of the deposited data

Results flagged for a closer look

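In 9 of 60 sets of arrays (30 members in each group), a single array stood apart from its group by the gap to its nearest neighbour; chance flags about 1 in 20 such sets. Transgenic array 1 held 3 of these values: Thbd at 6.24, where the next transgenic array had 6.98; Kng2 at 11.70, next to 12.10; and F2 at 12.28, next to 12.18. Transgenic array 7 was highest for Plg, at 12.57. Among wildtype arrays, array 9 was highest for Tfpi2, at 9.70, and for F13b, at 10.28, array 6 for Kng1, at 13.02, and array 1 for Serpina10, at 10.52. Wildtype array 2 was lowest for F13a1, at 3.50. Without transgenic array 1 the difference of Thbd was 1.09 and that of Kng2 0.07.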

How the results depend on the processing

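Over 25 alternatives (quantile normalization, median centring, brighter rows only, other variance models, a floor for dim values, all rows of a gene averaged, the replicate block, leaving out each array, and transgenic array 1 with wildtype array 9, the last chosen after seeing the data), 4 to 5 members were called higher and 14 to 20 lower, against 5 and 16 as reported. F8, Thbd, Plau, F3, Tfpi and Tfpi2 kept direction and call in every alternative run. With arrays centred on their medians, 4688 rows were lower in place of 2936, 0 hepatocyte members were higher since F5 lost its call, and Fga, Kng1, Proz and Serpinf2 were called lower. F11 lost its call in 17 of 25 alternatives and Fgb in 6; with eBayes without trend their adjusted p-values were 0.0628 and 0.152. Leaving out an array gave 0 to 1 higher acute phase genes. The median of the other pathway genes ranged from -0.06 to 0.03. Same-numbered arrays did not deviate together (correlations from -0.02 to 0.09 over 7 numbers). This gave no sign of pairing by number, but correlations over all rows cannot exclude it. With the replicate block 5 members were higher and 14 lower, and F11 and Fgb lost their calls (limma adjusted p-values 0.0755 and 0.125).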
